A study of Homo sapiens with 6 samples.

Results

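The genes described here encode the enzymes, membrane proteins, sorting machinery, proton pump and transcription factors of the lysosome, 47 in all, followed in HCT116 cells given a precursor of miR-224. They were listed by function with earlier results of the same arrays in view, because SLC17A5 and SUMF1 were among the genes with the largest differences, so the difference between miR-224 and control cells is given for them as a description. A gene was measured where a probe set is annotated with its symbol alone, and the brightest such probe set by mean over all arrays stood for it. This held for 46 of the 47 genes, out of 19775 genes measured on the arrays. GLB1, a galactosidase, has no probe set of its own and was not analysed here.

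The cells were HCT116, an established line grown from a human colon carcinoma and epithelial in character. The miR-224 cells received 50 nM of miR-224 precursor and the control cells 50 nM of control oligos, by transient transfection, and RNA was taken at 24 h. Each group has 3 arrays, numbered by experiment, and the series describes them as pairs from independent experiments, so each miR-224 array was set against the control array of its own experiment. No array reports how much mature miR-224 the cells contained, the single line limits the data to one genetic background, and the 24 h point shows RNA levels only.

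The lysosome is the acidic compartment in which cells break down proteins, sugars, sulfated glycans and lipids. Its soluble hydrolases are tagged with mannose 6-phosphate in the Golgi and carried by receptors to endosomes, a proton pump keeps the lumen acid, and transporters such as SLC17A5 return the products to the cytosol. TFEB and TFE3 bind a palindromic DNA element called CLEAR in the promoters of many of these genes. MicroRNAs such as miR-224 pair through the seed near their 5′ end with messenger RNAs and lower their level or translation. In colon carcinoma cells lysosomal breakdown supplies amino acids and lipids.

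The mature strands are shown because the seed decides which transcripts a microRNA can pair with. The capitals mark bases 2 to 8. Both sequences are RefSeq's, on GRCh38.p14, minus strand, at chrX:151958628-151958652 for the 5p strand and chrX:151958584-151958606 for the 3p strand.
hsa-miR-224-5p: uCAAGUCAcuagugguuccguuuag
hsa-miR-224-3p: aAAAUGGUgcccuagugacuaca
The strands have different seeds. Matches to either seed in the lysosomal transcripts were not analysed here.

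Promoters of 35 of the 46 measured genes were found in the RefSeq table, each covering 250 bases before and 50 bases after the gene's start. The promoters of SLC17A5, SUMF1 and IGF2R, which read lower in miR-224 cells, and of MCOLN1, which read higher, are printed so that genes that differed in opposite directions can be compared. Capitals mark the E-box CACGTG, the core that TFEB and TFE3 recognise, and, where the longer CLEAR palindrome is present, which is the E-box with GT before it and AC after it, the whole of it. All are on GRCh38.p14, at chr6:73653943-73654242 (minus strand) for SLC17A5, chr3:4467220-4467519 (minus) for SUMF1, chr6:159968832-159969131 (plus) for IGF2R and chr19:7522374-7522673 (plus) for MCOLN1.
SLC17A5: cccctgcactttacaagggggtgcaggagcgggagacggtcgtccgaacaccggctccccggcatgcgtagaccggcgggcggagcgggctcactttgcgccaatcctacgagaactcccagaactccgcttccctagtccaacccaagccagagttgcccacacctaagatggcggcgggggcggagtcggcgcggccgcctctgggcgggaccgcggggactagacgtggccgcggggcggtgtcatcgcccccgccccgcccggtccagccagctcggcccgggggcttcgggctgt
SUMF1: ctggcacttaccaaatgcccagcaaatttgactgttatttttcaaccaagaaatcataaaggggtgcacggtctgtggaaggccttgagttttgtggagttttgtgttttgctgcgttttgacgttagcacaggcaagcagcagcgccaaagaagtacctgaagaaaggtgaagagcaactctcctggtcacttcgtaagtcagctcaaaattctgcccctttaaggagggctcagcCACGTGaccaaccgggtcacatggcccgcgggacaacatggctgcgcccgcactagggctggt
IGF2R: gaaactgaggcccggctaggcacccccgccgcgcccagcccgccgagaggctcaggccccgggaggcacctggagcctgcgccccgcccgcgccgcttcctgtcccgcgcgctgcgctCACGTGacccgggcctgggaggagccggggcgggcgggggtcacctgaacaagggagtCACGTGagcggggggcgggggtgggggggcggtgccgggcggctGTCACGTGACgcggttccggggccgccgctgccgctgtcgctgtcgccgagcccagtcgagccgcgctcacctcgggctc
MCOLN1: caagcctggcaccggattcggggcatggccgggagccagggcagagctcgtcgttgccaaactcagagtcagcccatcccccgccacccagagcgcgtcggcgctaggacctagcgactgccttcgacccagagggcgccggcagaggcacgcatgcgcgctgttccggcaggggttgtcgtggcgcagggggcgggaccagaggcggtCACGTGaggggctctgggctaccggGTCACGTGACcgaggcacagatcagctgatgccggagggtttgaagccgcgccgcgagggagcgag
The SLC17A5 window held 0 E-boxes, the SUMF1 window 1, the IGF2R window 3 and the MCOLN1 window 2. The SLC17A5 window was 71.7% G and C, against 51.3% for SUMF1, 78.7% for IGF2R and 70.0% for MCOLN1.

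Both motifs read the same on either strand, and each CLEAR match contains an E-box. CLEAR is already known from the promoters of many lysosomal genes, so the shares below are a description and not an independent finding. The genes of the whole table were not matched to the lysosomal ones by level or by G and C content. The E-box was found in the promoter of 13 of 35 lysosomal genes (37.1%), against 2396 of 27305 genes in the whole table (8.77%). CLEAR was found in 4 of the 35 (11.4%), against 115 of all genes (0.421%). Besides IGF2R and MCOLN1 these were GAA, the acid glucosidase of glycogen breakdown, and GNPTG, a subunit of the enzyme that starts the mannose 6-phosphate tag. Their matches are shown with 8 flanking bases on each side and CLEAR in capitals, at chr17:80101495-80101520 and chr17:80101540-80101565 for GAA and at chr16:1351909-1351934 for GNPTG, plus strand, GRCh38.p14.
GAA, distal match: gaggccgcGTCACGTGACccaccgcg
GAA, proximal match: tcccgccgGTCACGTGACccgcctct
GNPTG: tccccgtgGTCACGTGACcgtcactt
LAMP1, an abundant lysosomal membrane glycoprotein, held 6 E-boxes and 0 full CLEAR matches. Of the 24 E-boxes in lysosomal promoters, 17 lay within 100 bases of the gene start.

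Lower and higher genes occurred both with and without these elements. Among the 13 genes with an E-box, 6 were lower and 7 higher in miR-224 cells, with a median log2 difference of 0.02 and a range of -1.38 to 0.31. Among the 22 genes whose window held none, 11 were lower and the median was 0.00. Of the 4 genes with CLEAR, 3 were lower (IGF2R, GAA and GNPTG) and 1 was higher (MCOLN1). These counts describe letters in a short window and not binding by TFEB or TFE3.

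**Figure D1:**
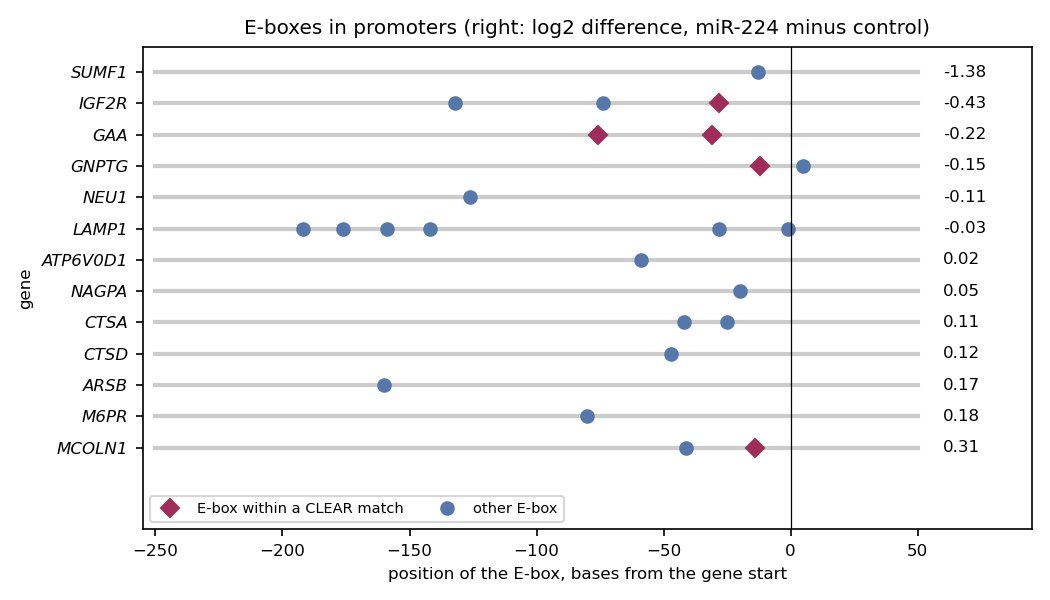
Positions of E-boxes in the promoters of 13 lysosomal genes, in bases from the gene start, with genes ordered by the log2 difference of miR-224 minus control cells printed at the right. Diamonds mark E-boxes that lie within CLEAR and circles mark the others. Genes with CLEAR appear among both the lower (IGF2R, GAA, GNPTG) and the higher (MCOLN1) genes.

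Before the lysosomal values, 3 facts on the arrays bear on them. Of 12 markers of colon epithelium measured, 10 read at or above the median gene level of 4.75 in both groups, whereas 0 of 5 leukocyte, 1 of 6 fibroblast and 0 of 5 endothelial markers did. Experiment 1 stood apart in both groups: the probe set at the 5′ end of actin read 4.14 on the miR-224 array and 4.42 on the control array of experiment 1, against 12.26 to 12.49 in experiments 2 and 3, while the probe set at the 3′ end read 12.41 to 12.54 on all arrays. GAPDH showed the same contrast, with 5′ values of 4.39 on the miR-224 array and 3.80 on the control array of experiment 1, and of 12.96 to 13.03 in experiments 2 and 3. The part of this lower 5′ signal in the differences below was not tested. Values are read here as log2 expression values although the base is not stated, each standard error (SE) is that of the paired fit, and the differences are miR-224 minus control. That fit draws each gene's variance towards a value shared by all genes, so an SE is not the spread of that gene's own differences alone.

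SLC17A5 and SUMF1 read lower in miR-224 cells in every experiment, with mean log2 differences of -1.50 and -1.38, while all 44 other lysosomal genes differed by less than 0.5. Over all genes, 1.48% differed by more than 0.5 in either direction. The lysosomal list had no shared direction: 23 of 46 genes were lower and 23 higher, with a median of 0.01, the same as over all 19775 genes (0.01). Of the 46 genes, 10 were lower in every experiment (21.7%), against 14.4% of all genes, and 10 were higher in every experiment (21.7%), against 18.3% of all genes. The miR-224 and control values did not overlap for 3 lower genes (SLC17A5, IGF2R and TFE3), against 2.11% of all genes, and for 1 higher gene (SMPD1), against 4.16%. None of the 46 passed limma's test at an adjusted p under 0.05, nor did any gene on the arrays (0% of 19775). At an unadjusted p under 0.05 there were 6 lower genes, against 5.52% of all genes, and 3 higher genes, against 5.45%, so 9 in all, which became 3 without experiment as a block. With experiments 2 and 3 alone, limma called 174 genes at an adjusted p under 0.05 (0.88%), with 2 of the 46 lysosomal genes among them, SLC17A5 at -1.82 and SUMF1 at -1.77. With an intensity trend and robust variances it called 56 genes (0.283%), again with SLC17A5 and SUMF1 as the only lysosomal ones. The lysosomal genes were also brighter than most, with 43 of 46 at or above the median level, and were not set against genes of equal level. Because the contrast entered the choice of genes, nothing is read from these counts.

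**Figure D2:**
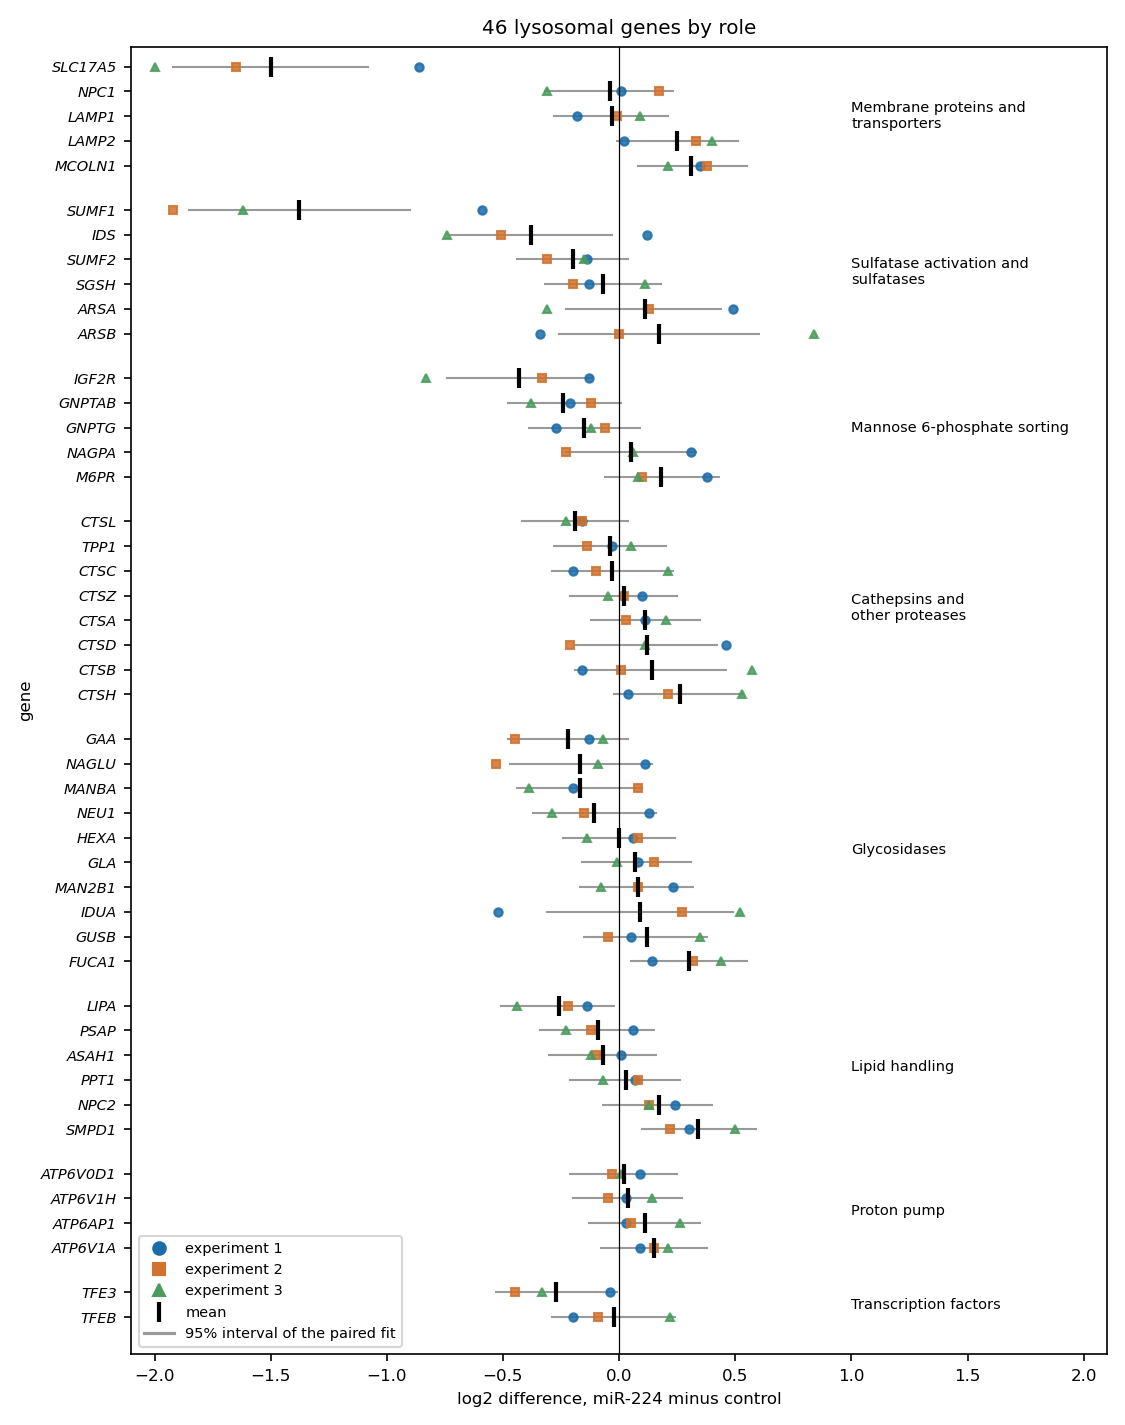
Log2 differences of miR-224 minus control cells for 46 lysosomal genes, grouped by role. Symbols are the 3 experiments, black bars their mean and grey lines the 95% interval of the paired fit. SLC17A5 (-1.50) and SUMF1 (-1.38) lie apart from the other 44 genes, which lie between -0.43 and 0.34.

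SLC17A5 encodes sialin, which carries free sialic acid out of the lysosome and whose loss causes sialic acid storage disease. It read 6.21, 4.94 and 4.96 in the miR-224 cells of experiments 1, 2 and 3, against 7.06, 6.59 and 6.96 in the control cells. All miR-224 values lay under all control values, and the miR-224 value of experiment 1 was the closest to them. The differences were -0.86, -1.65 and -2.0, with a mean of -1.50 ± 0.19 (SE, n = 3 pairs), equal to a level 2.83-fold lower in miR-224 cells, and the gene ranked 3 from the lowest of the 19775. A second, dimmer probe set for the gene read 4.2, 4.87 and 5.76 in the miR-224 cells, against 4.84, 6.09 and 6.68 in the control cells. It was lower in each experiment as well, by -0.63, -1.22 and -0.92, and its mean of -0.92 was smaller in size than that of the brighter one. Which part of the transcript each probe set reads was not analysed here.

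SUMF1 encodes the formylglycine-generating enzyme, which modifies the active site of every sulfatase in the endoplasmic reticulum and so switches them on. It read 6.87, 4.93 and 5.62 in the miR-224 cells of experiments 1, 2 and 3, against 7.45, 6.85 and 7.25 in the control cells. The groups touched at one point, since the miR-224 value of experiment 1 lay just above the control value of experiment 2. The differences were -0.59, -1.92 and -1.62, with a mean of -1.38 ± 0.21 (SE, n = 3 pairs), or 2.59-fold lower, and the gene ranked 6 from the lowest. Only 1 probe set carries this symbol, so no second reading of the gene was available. For both genes the difference in experiment 1, whose arrays had the low 5′ signal, was the smallest of the 3. The brightest probe sets did not read lower there, with means of 6.63 in experiment 1 against 5.86 in experiments 2 and 3 for SLC17A5, and 7.16 against 6.16 for SUMF1. The dimmer SLC17A5 probe set did, at 4.52 against 5.85. A link between the 5′ signal and these differences was not tested.

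SUMF2, the paralog of SUMF1 that lacks its catalytic activity, read 8.07, 7.44 and 7.54 in the miR-224 cells, against 8.21, 7.75 and 7.69 in the control cells. It was lower in each experiment, by -0.14, -0.31 and -0.15, and the groups overlapped. The mean of -0.20 ± 0.11 (SE) has a 95% interval of -0.44 to 0.04.

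**Figure D3:**
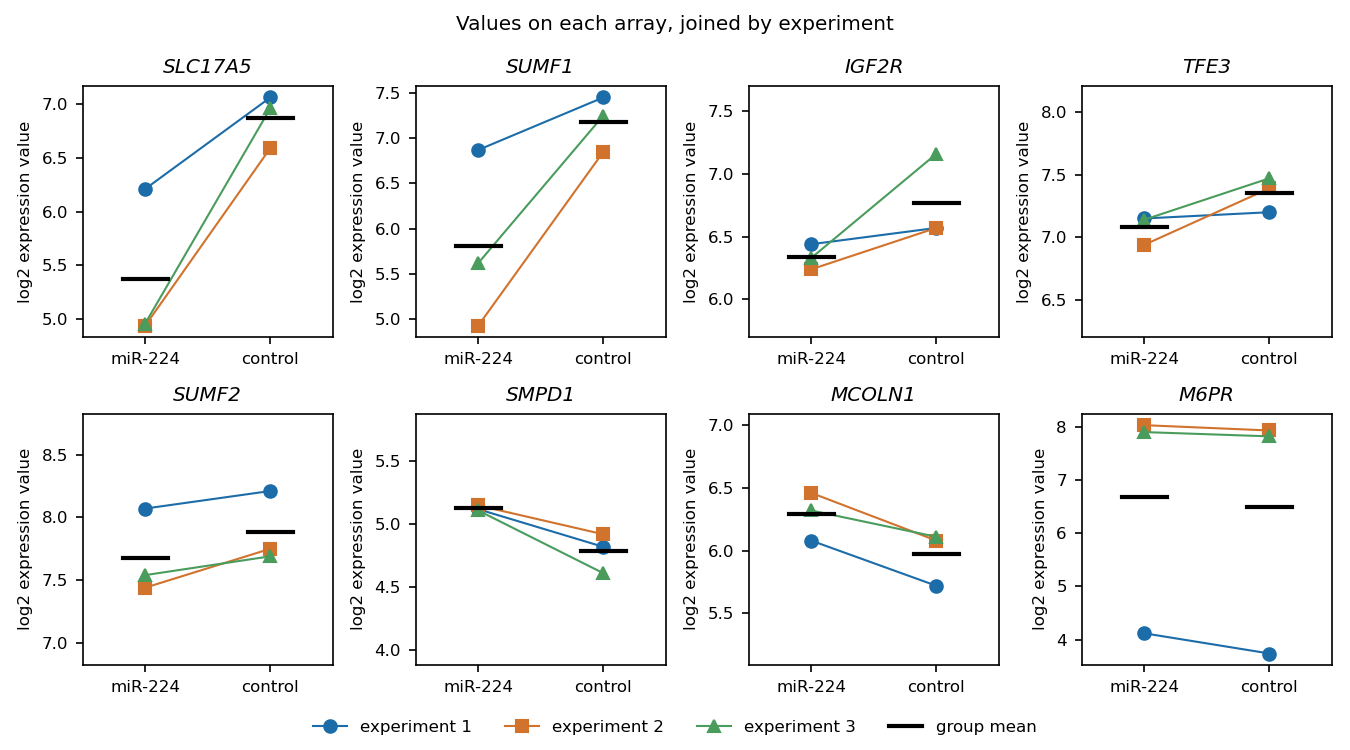
Log2 expression values of 8 lysosomal genes on each of the 6 arrays, miR-224 cells at the left and control cells at the right of each panel, joined within an experiment, with group means as bars. SLC17A5, SUMF1, IGF2R, TFE3 and SUMF2 slope up towards control in every experiment, SMPD1, MCOLN1 and M6PR slope down, and M6PR reads near 4 in experiment 1 and near 8 in the other experiments. Each panel has its own scale.

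The sulfatases that depend on SUMF1 showed no common direction, although most of those measured read under the median level. IDS, which removes sulfate from heparan and dermatan sulfate, read 7.03, 5.63 and 5.59 in the miR-224 cells, against 6.91, 6.14 and 6.33 in the control cells. It was higher in experiment 1 (0.12) and lower in experiments 2 and 3 (-0.51 and -0.74), with a mean of -0.38 ± 0.16 (SE) and overlapping groups. Of its other probe sets above the median level, one differed by -0.35 and the other by -0.23, and both were lower in every experiment. Its 7 probe sets under the median level ranged from -0.37 to 0.36. SGSH, which acts on heparan sulfate, differed by -0.07, with a 95% interval of -0.32 to 0.18. ARSA, which acts on sulfatide, and ARSB, which acts on dermatan sulfate, stood at 0.11 and 0.17 on probe sets under the median level, where ARSB ranged from -0.34 in experiment 1 to 0.84 in experiment 3. Over 15 sulfatase genes measured, lysosomal or not, 7 were lower and 8 higher, and the median was 0.01. In every experiment 1 was lower, against 14.4% of all genes, and 1 higher, against 18.3%. Only 6 of the 15 read at or above the median level, so the signs of the others say little. SULF2, which trims sulfate from heparan sulfate at the cell surface, was the one that was higher throughout, by 0.37, 0.57 and 0.21 in experiments 1, 2 and 3. ARSL, on a probe set under the median level, and ARSK stood at 0.35 and 0.20, each with 1 experiment below 0.

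Genes that make or use sialic acid, the cargo of SLC17A5, likewise divided. Of 14 measured, 7 were lower and 7 higher, with a median of 0.04, and 3 were lower in every experiment, against 14.4% of all genes, and 6 higher, against 18.3%. Besides SLC17A5, the lower ones were CMAS, which activates sialic acid (-0.19, -0.14 and -0.30 in experiments 1, 2 and 3), and SIAE, an esterase of acetylated sialic acids (-0.09, -0.51 and -0.03), both named after their values were seen. NANS, the synthase of sialic acid phosphate, averaged 8.07 ± 0.27 in miR-224 cells and 7.78 ± 0.28 in control cells (SD, n = 3 each), and NANP, the phosphatase of the next step, averaged 7.07 ± 0.57 in miR-224 cells and 6.59 ± 0.69 in control cells. Both were higher in every experiment, NANS by 0.29, 0.20 and 0.38 and NANP by 0.36, 0.79 and 0.27. NEU4, a sialidase, stood at 0.23 ± 0.11 (SE). NEU1, the lysosomal sialidase, read 6.36, 6.96 and 6.73 in the miR-224 cells, against 6.23, 7.12 and 7.03 in the control cells, and its direction differed between experiments (0.13, -0.15 and -0.29). CTSA, the protective protein that keeps NEU1 stable, differed by 0.11 ± 0.10 (SE) and was higher in each experiment. In the SLC17 family of 9 transporters, only SLC17A5 differed by more than 1. However, only 2 of the 9 read at or above the median level, SLC17A5 and SLC17A9, and SLC17A9 stood at 0.03. The others had little room to read lower. SLC17A1, a phosphate and urate transporter, stood at 0.58 on a probe set under the median level, with means of 3.42 in miR-224 cells and 2.84 in control cells, and SLC17A7 and SLC17A4 stood at 0.19 and 0.17, also on dim probe sets.

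Among the genes of mannose 6-phosphate sorting, 3 of 5 were lower in every experiment, against 14.4% of all genes, and 1 was higher in every experiment, against 18.3%. IGF2R, the large receptor that carries tagged hydrolases to endosomes and also takes up the growth factor IGF2, read 6.44, 6.24 and 6.33 in the miR-224 cells, against 6.57, 6.57 and 7.16 in the control cells. The groups did not overlap, and the control array of experiment 3 was the highest by a wide margin. The differences were -0.13, -0.33 and -0.83, with a mean of -0.43 ± 0.14 (SE). A further probe set, under the median level, was also lower in each experiment (-0.40, -0.42 and -0.64), and the dimmest one differed by 0.06. GNPTAB, the catalytic subunit of the phosphotransferase that adds the tag, read 7.67, 7.23 and 6.77 in the miR-224 cells, against 7.88, 7.35 and 7.15 in the control cells. It was lower in every pair, by -0.21, -0.12 and -0.38, and the groups overlapped, with both arrays of experiment 1 at the high end. Its dim probe sets stood at 0.11 and -0.11. GNPTG, its partner subunit, was lower by -0.27, -0.06 and -0.12 in experiments 1, 2 and 3.

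NAGPA, which uncovers the tag, stood at 0.05 ± 0.12 (SE). M6PR, the smaller receptor, read 4.12, 8.03 and 7.90 in the miR-224 cells, against 3.74, 7.93 and 7.82 in the control cells. The mean of experiment 1 was 3.99 under that of experiments 2 and 3, and its difference there (0.38) exceeded the 0.10 and 0.08 of experiments 2 and 3. Of 109 probe sets of the lysosomal genes, 7 (6.42%) read more than 2 lower in experiment 1 than in experiments 2 and 3, against 2.05% of all probe sets with 1 symbol. M6PR was the only gene among them for which this probe set stood for the gene. The others were additional probe sets of ASAH1, ATP6V1A, IGF2R, LAMP1, PSAP and TPP1. The 2 shares are not at equal level: 43 of the 46 lysosomal genes read at or above the median level, and a probe set near the lowest values cannot read 2 lower. Probe sets of equal level were not compared.

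**Figure D4:**
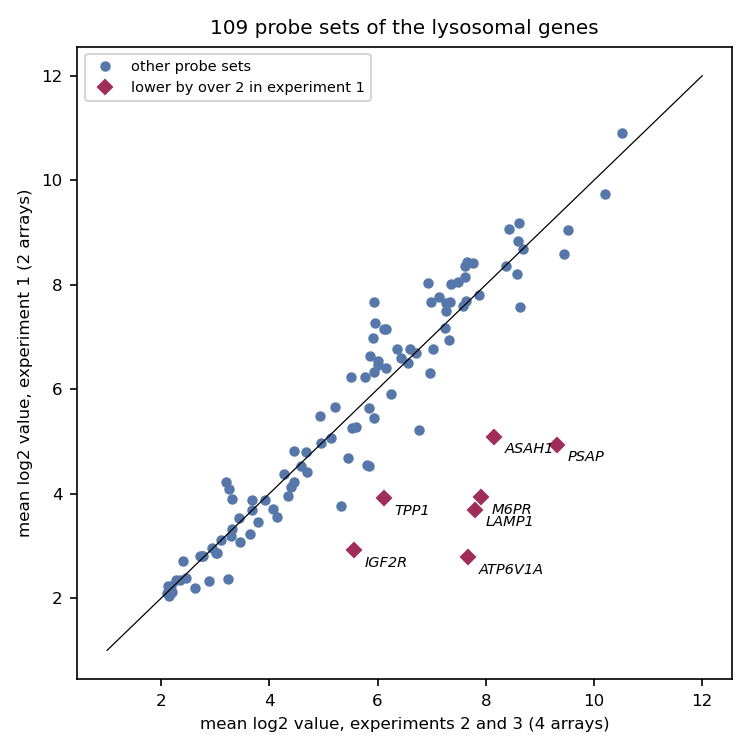
Mean log2 value of each of 109 lysosomal probe sets in experiment 1 (vertical axis, 2 arrays) against experiments 2 and 3 (horizontal axis, 4 arrays), with the line of equal values. The 7 probe sets named read more than 2 lower in experiment 1, among them M6PR at 3.93 against 7.92.

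The remaining membrane proteins lay between -0.04 and 0.31. MCOLN1, the calcium channel of the lysosomal membrane, read 6.08, 6.46 and 6.32 in the miR-224 cells, against 5.72, 6.08 and 6.11 in the control cells. It was higher in every experiment by similar amounts (0.35, 0.38 and 0.21), with a mean of 0.31 ± 0.10 (SE), and the groups overlapped by a narrow margin. LAMP2, a membrane glycoprotein that also serves in autophagy, read 6.70, 7.10 and 6.68 in the miR-224 cells, against 6.69, 6.78 and 6.28 in the control cells. It was almost level in experiment 1 (0.02) and higher in experiments 2 and 3 (0.33 and 0.40). A further bright probe set gave a mean of 0.60, mostly from experiment 2, with 0.24, 1.36 and 0.21 in experiments 1, 2 and 3. Another bright probe set of LAMP2 was lower in experiment 1 (-0.26) and higher in experiments 2 and 3 (0.38 and 0.45), with a mean of 0.19, and a dim one averaged -0.10. LAMP1 stood at -0.03, with a 95% interval of -0.28 to 0.21, and NPC1, the cholesterol exporter, at -0.04, with an interval of -0.32 to 0.23.

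Among the 46 genes, the only one that was higher without overlap handles lipids. SMPD1, the acid sphingomyelinase, read 5.12, 5.15 and 5.11 in the miR-224 cells, against 4.82, 4.92 and 4.61 in the control cells. The miR-224 values were almost equal and lay above every control value. The differences were 0.30, 0.22 and 0.50, with a mean of 0.34 ± 0.11 (SE), which was 0.14 with the mean of its 4 probe sets, the other 3 of which were under the median level. LIPA, the acid lipase that frees cholesterol and fatty acids, read 7.57, 7.16 and 7.06 in the miR-224 cells, against 7.71, 7.37 and 7.49 in the control cells. It was lower in each pair, by -0.14, -0.22 and -0.44, and the groups overlapped. NPC2, which hands cholesterol to NPC1, read 8.48, 8.59 and 8.28 in the miR-224 cells, against 8.24, 8.46 and 8.15 in the control cells. It was higher by 0.24, 0.13 and 0.13, and the groups overlapped. PSAP, the precursor of the saposins, ASAH1, the acid ceramidase, and PPT1, a thioesterase, stood at -0.09, -0.07 and 0.03, each with a 95% interval that includes 0. A further PSAP probe set above the median level was lower in every experiment (-0.53, -0.20 and -0.17), with a mean of -0.30. It read 4.94 on average in experiment 1, against 9.32 in experiments 2 and 3.

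The proteases and glycosidases, which form the bulk of the hydrolases, differed little. Of 8 cathepsins and other proteases, 3 were lower and 5 higher, within -0.19 to 0.26. CTSH, an aminopeptidase, read 6.43, 6.06 and 6.62 in the miR-224 cells, against 6.39, 5.85 and 6.09 in the control cells. It was higher by 0.04, 0.21 and 0.53, so most of its difference came from experiment 3. CTSL, an endopeptidase, was lower by nearly the same amount in each pair (-0.16, -0.16 and -0.23). CTSB stood at 0.14, made up of -0.16, 0.01 and 0.57, and its next probe set gave nearly the same values (-0.21, 0.06 and 0.53), while 3 others above the median level were lower on average. CTSD, the main aspartic protease, stood at 0.12 (interval -0.19 to 0.42), CTSZ at 0.02, TPP1, a tripeptidyl peptidase, at -0.04 and CTSC, which activates serine proteases, at -0.03.

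Of 10 glycosidases, 5 were lower and 5 higher. FUCA1, which removes fucose and is known as a p53 target, read 7.67, 7.41 and 8.12 in the miR-224 cells, against 7.53, 7.09 and 7.68 in the control cells. It was higher in every pair (0.14, 0.32 and 0.44), with overlapping groups, and its mean of 0.30 was 0.14 when averaged with its dim second probe set. GAA, whose promoter held both distal and proximal CLEAR matches, read 6.87, 6.75 and 7.62 in the miR-224 cells, against 7.0, 7.20 and 7.69 in the control cells. It was lower in each pair, mainly in experiment 2 (-0.13, -0.45 and -0.07). The other 8 lay between -0.17 (NAGLU, of heparan sulfate breakdown, and MANBA, a mannosidase) and 0.12 (GUSB, a glucuronidase). HEXA, which degrades gangliosides, stood at 0.00 (interval -0.24 to 0.24), GLA at 0.07, MAN2B1 at 0.08 and IDUA, on a dim probe set, at 0.09.

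The proton pump had no shared direction. Of its genes, 4 are among the 47, with means between 0.02 and 0.15, and 2 of these were higher in every experiment, against 18.3% of all genes. Of 15 further pump genes measured, 8 were lower and 7 higher, with a median of -0.04. In every experiment 2 of the 15 were lower, against 14.4% of all genes, and 3 higher, against 18.3%. The lowest were ATP6V0E2 at -0.46 ± 0.20 (SE), which was higher in experiment 1, and ATP6V0A2 at -0.28 ± 0.11, which was lower in every experiment. These 2 were named after their values were seen. ATP6V1A, the catalytic subunit, read 8.88, 8.81 and 8.58 in the miR-224 cells, against 8.79, 8.66 and 8.37 in the control cells. Its differences of 0.09, 0.15 and 0.21 had the same sign in every pair, with a mean of 0.15 and a 95% interval of -0.08 to 0.38, and the groups overlapped. ATP6AP1, an accessory subunit, stood at 0.11, ATP6V1H at 0.04 and ATP6V0D1 at 0.02, with a 95% interval of -0.21 to 0.25 for the last.

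Of the transcription factors, TFE3 read 7.15, 6.94 and 7.14 in the miR-224 cells, against 7.20, 7.39 and 7.47 in the control cells. All miR-224 values lay under all control values, although by only 0.04 in experiment 1, and the differences were -0.04, -0.45 and -0.33, with a mean of -0.27 ± 0.12 (SE). A second probe set of TFE3 above the median level gave -0.18, -0.47 and -0.24. TFEB read 5.54, 5.72 and 6.03 in the miR-224 cells, against 5.74, 5.81 and 5.80 in the control cells. Its direction differed between experiments, with a mean of -0.02 ± 0.12 (SE).

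Where a gene had a further probe set at or above the median level, the readings could be compared. This held for 13 genes, and in 8 of them every such probe set had the same sign as the brightest. By the mean over experiments, SLC17A5, IDS and TFE3 were lower on all of theirs, and LAMP2 was higher on all of its own. CTSB, CTSC, LAMP1, TPP1 and ASAH1 were mixed, all with brightest differences of 0.14 or less in size.

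**Figure D5:**
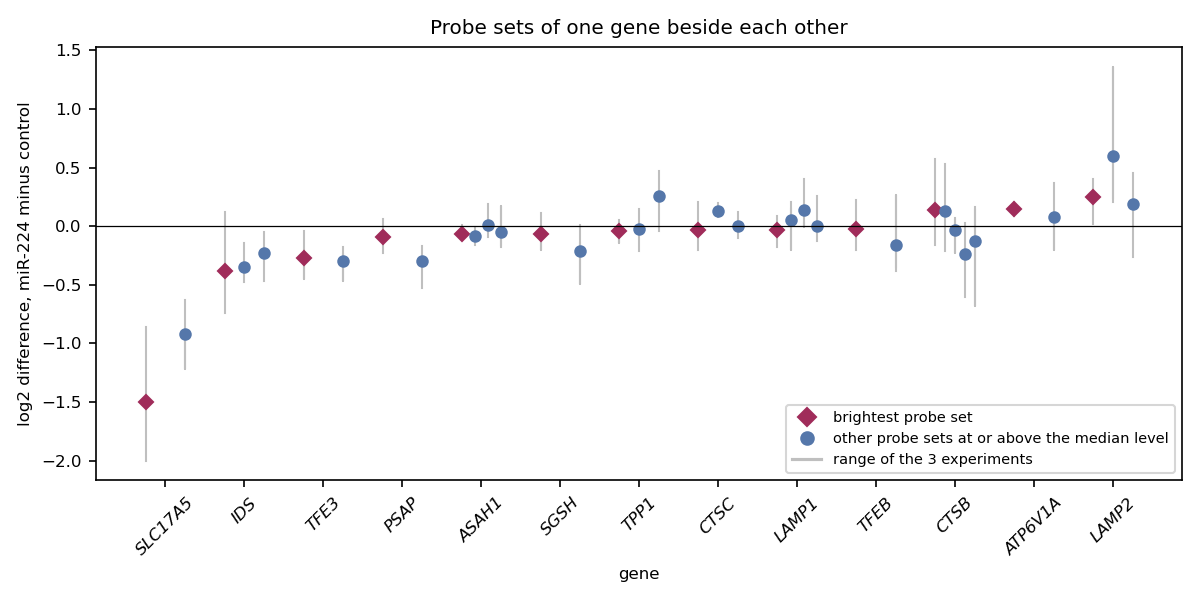
Log2 differences of miR-224 minus control cells on each probe set at or above the median level, for the 13 lysosomal genes with more than 1. Diamonds are the brightest probe sets, circles the others and grey lines the range of the 3 experiments. SLC17A5 reads -1.50 and -0.92, and LAMP2 0.25, 0.60 and 0.19.

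The experiments resembled each other in part. Across the 44 genes other than SLC17A5 and SUMF1, the differences of experiments 2 and 3, which share no arrays, correlated at Pearson's r = 0.54 and Spearman's rho = 0.50, against 0.31 and 0.23 over all 19775 genes. Experiment 1 correlated with experiment 2 at r = 0.17 and with experiment 3 at r = -0.06 across the same 44 genes, against 0.21 and 0.10 over all genes. The lysosomal genes are brighter than most, and genes of equal level were not compared. Genes are not independent replicates and share the array and its normalization, so these values are descriptive.

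A further 91 genes, listed as lysosomal or linked to the lysosome, were measured that are not among the 47. Products of some, such as GBA2 and the GGA adaptors of the Golgi, do not reside in the lysosome. Of the 91 genes, 47 were lower and 44 higher, with a median of -0.02. In every experiment 21 were lower (14.4% of all genes were) and 16 were higher (18.3% of all genes were), and 0 passed at an adjusted p under 0.05. At an unadjusted p under 0.05 there were 12 lower, against 5.52% of all genes, and 2 higher, against 5.45%. The 4 lower genes with the smallest p and the same sign throughout were LAPTM4A, a lysosomal membrane protein (-0.41 ± 0.13 SE), GGA3 (-0.31 ± 0.10) and GGA1 (-0.35 ± 0.13), adaptors that load the mannose 6-phosphate receptors into vesicles at the Golgi, and SLC48A1, a haem transporter (-0.29 ± 0.10). The 4 higher were SLC46A3 (0.26 ± 0.11), on a dim probe set, the cation channel TPCN1 (0.28 ± 0.13), the amino acid transporter SLC36A1 (0.26 ± 0.12) and the protease CTSV (0.26 ± 0.14). All were smaller in size than the differences of SLC17A5 and SUMF1. Of the 91 genes, 74 read at or above the median level, a larger share than among all genes.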

How the data were processed

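The deposited table holds values of 54675 probe sets on 6 arrays. RMA and Partek stand in the submitters' processing notes, without version or settings. RMA corrects background, aligns the distributions of the arrays and summarises each probe set, so that a shift shared by most genes cannot be seen. The deposited values lay between 1.47 and 13.58 with array medians from 3.41 to 3.53, and were read as log2 values, whose base is not stated. Arrays have no sequencing depth, and precision is limited by there being 3 arrays a group.

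The platform annotation gave the gene names, and in it 41091 probe sets had 1 gene symbol and 1801 several. The brightest probe set by mean stood for each of 19775 genes, after 62 control probe sets were left out. The members and gene lists were chosen with earlier results of these data known, and the lists come from general knowledge of the lysosome.

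The test was that of limma 3.58.1 (R 4.3.3), two-sided, from lmFit and eBayes with experiment as a block and p-values adjusted by Benjamini-Hochberg over all genes at 0.05, which leaves 2 residual degrees of freedom, since the series describes pairs. Deviations from the group means correlated over genes at 0.855, 0.585 and 0.771 between same-numbered arrays and at -0.753 to 0.257 between the others. The numbers therefore pair the arrays. SDs are over arrays of a group. P-values rest on moderated variances, in which the spread of a gene's differences between these experiments is drawn towards a value shared by all genes. Values on every array were given for SLC17A5, SUMF1, SUMF2 and the 8 lower and 8 higher genes with the smallest unadjusted p and the same sign in every experiment. The 2 largest differences of each role and both transcription factors were also named. From the further listed genes 4 lower and 4 higher were named in the same way, and from the other lists up to 3 by size. Array values of IDS, NEU1 and TFEB were added after they were seen.

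On simulated data with 200 changed genes among 19775, the paired fit recovered 100% of genes changed by 1 or 2 on the log2 scale, with 25 false calls, more than the threshold implies. The simulated noise was independent between arrays and drawn from the fit's own moderated variances, and the simulated effect was equal in every experiment. Recovery in real data, where this fit called 0 genes, may therefore be lower. Alternatives were the fit without the block, each experiment left out, other choices of probe set, a filter on dim genes, 2 other normalizations and other variance settings. Motifs were searched as exact letters in the RefSeq promoters. Figures were drawn with matplotlib 3.10.9.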

Additional observations from a re-analysis of the deposited data

How the results depend on the processing

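SLC17A5 and SUMF1 were lower under every alternative, at -1.21 to -1.82 for SLC17A5 and -1.10 to -1.77 for SUMF1. Without experiment as a block the differences were identical, 0 genes were called, the lysosomal genes at an unadjusted p under 0.05 were 3 in place of 9, and the adjusted p of both genes was 1.0. Counts of genes called at an adjusted p under 0.05 over all genes were 0 with the paired fit, 56 with variances that follow intensity and a robust prior, 4 with array weights, 1 with the brightest probe set whose ID does not mark it as possibly shared, and 0 to 174 with 1 experiment left out. Without experiment 1 there were 174, and 1 residual degree of freedom is left. SLC17A5 and SUMF1 were the only lysosomal genes called in any of these, both without experiment 1 and with variances that follow intensity, and SLC17A5 alone with array weights. In the paired fit, leaving out 1 array of a pair gives the same difference as leaving out the experiment. With 1 experiment left out, lysosomal genes higher in all remaining experiments numbered 12 to 17, and those at an unadjusted p under 0.05 numbered 3 to 12. Fewer experiments share a sign more often. The matching shares of all genes, with an experiment left out or without the block, are not given here, so nothing is read from these counts. The median lysosomal difference was 0.05 with the brightest probe set whose ID does not mark it as possibly shared, and -0.02 to 0.03 under the others. That choice turned IGF2R to 0.06 and GNPTAB to 0.11, both on dim probe sets, while averaging all probe sets gave -0.29 and -0.08. Other changes of sign concerned genes that differed by under 0.2. Counts over experiments were not rerun for the variance settings, which leave the differences within pairs as they are.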
